A study of Mus musculus with 2 samples.

Results

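The genes described here encode 9 proteins that detect foreign or misplaced nucleic acids in the cytosol or in endosomes, or that pass on or restrain that signal: Ifih1, Ddx58, Dhx58, Mavs, Tlr3, Zbp1, Sting1 (older symbol Tmem173), Eif2ak2 and Adar. They were taken as all probe sets that the platform annotation assigns to these symbols, which gave 21 probe sets, 0 of them shared with another gene. All 9 genes were measured, of 12750 measured genes and 18193 named genes in all. The signals came from primary cultured mouse cells of the retinal pigment epithelium (RPE), a pigmented layer that supports the photoreceptors. There were 2 cultures with 1 oligonucleotide array each: RPE left untreated, and RPE given 100 U/ml of interferon gamma (IFNg), a cytokine of T and NK cells, over 24 h. Both were grown in DMEM with 20% FBS for 14 days, were moved to medium without serum overnight before RNA was taken, and were described as 95% positive for cytokeratin. The labels name no strain, genotype or animal number, and do not say how the overnight step overlapped with the IFNg. With 1 array per group no p-value exists, the number of arrays limits the precision, and the words higher and lower describe these 2 arrays.

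As background, cells carry sensors for double-stranded RNA and DNA, which mark viral infection or damage. The RIG-I-like receptors MDA5 (Ifih1) and RIG-I (Ddx58) bind RNA in the cytosol and signal through the mitochondrial adaptor MAVS, while LGP2 (Dhx58) binds RNA but lacks the signalling domains. TLR3 senses double-stranded RNA in endosomes and signals through the adaptor TRIF (Ticam1), and STING (Sting1) relays the cyclic dinucleotide made by the DNA sensor cGAS. ZBP1 binds Z-form nucleic acid and can start necroptosis, PKR (Eif2ak2) binds double-stranded RNA and blocks translation through eIF2alpha, and the RNA editor ADAR1 (Adar) converts adenosine to inosine in double-stranded RNA and so limits sensing of the cell's own RNA. The routes through MAVS, TRIF and STING lead to type I interferon, and many of the sensor genes are themselves interferon-stimulated. Interferons act on promoters through sequence elements called ISRE and GAS, the latter the classical element of IFNg responses.

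The promoter windows below are shown because the genes they belong to differed in their response, from the highest ratio (Ifih1) to the lowest (Mavs). Each runs from 250 bases before to 50 bases after a RefSeq transcription start in GRCm38.p6, read on the gene's strand. No windows were available for Dhx58 and Zbp1. The window of Sting1 was left out by its chromosome before motifs were searched, so Sting1 is not in the counts below. Capitals mark matches to an ISRE core, searched on both strands as GAAA, 2 bases of any kind and GAAA, or to a GAS element, TTC, 3 bases of any kind and GAA, which reads the same on both strands. For Adar, which has 3 windows, the one with a match is printed. The window of Tlr3, the gene with the second highest log2 ratio (2.73), held no match and is not printed. The printed windows thus do not show whether motifs and ratios go together.
Ifih1, chr2:62646206-62646505, minus strand: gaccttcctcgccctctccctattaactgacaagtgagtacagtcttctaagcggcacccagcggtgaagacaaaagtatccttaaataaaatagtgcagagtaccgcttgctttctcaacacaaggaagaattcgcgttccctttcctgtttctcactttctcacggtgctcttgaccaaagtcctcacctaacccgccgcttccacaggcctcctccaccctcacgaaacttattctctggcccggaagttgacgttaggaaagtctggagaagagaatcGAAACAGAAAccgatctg
Eif2ak2, chr17:78882523-78882822, minus strand: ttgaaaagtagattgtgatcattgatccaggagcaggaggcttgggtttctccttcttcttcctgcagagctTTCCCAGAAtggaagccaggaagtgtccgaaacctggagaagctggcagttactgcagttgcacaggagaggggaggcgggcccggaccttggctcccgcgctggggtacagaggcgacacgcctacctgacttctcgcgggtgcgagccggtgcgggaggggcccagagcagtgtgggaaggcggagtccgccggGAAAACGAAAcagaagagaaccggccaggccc
Ddx58, chr4:40239776-40240075, minus strand: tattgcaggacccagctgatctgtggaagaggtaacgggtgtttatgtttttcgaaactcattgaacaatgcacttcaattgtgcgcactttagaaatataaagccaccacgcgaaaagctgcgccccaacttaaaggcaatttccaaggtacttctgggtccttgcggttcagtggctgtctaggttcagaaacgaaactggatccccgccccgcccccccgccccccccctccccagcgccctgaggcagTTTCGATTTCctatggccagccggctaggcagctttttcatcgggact
Adar, chr3:89730468-89730767, plus strand: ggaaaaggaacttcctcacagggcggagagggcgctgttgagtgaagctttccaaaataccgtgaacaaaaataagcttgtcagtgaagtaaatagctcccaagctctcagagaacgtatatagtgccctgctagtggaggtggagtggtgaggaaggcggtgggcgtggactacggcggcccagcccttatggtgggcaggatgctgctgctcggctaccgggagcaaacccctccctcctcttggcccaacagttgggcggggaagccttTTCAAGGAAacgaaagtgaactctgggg
Mavs, chr2:131233813-131234112, plus strand: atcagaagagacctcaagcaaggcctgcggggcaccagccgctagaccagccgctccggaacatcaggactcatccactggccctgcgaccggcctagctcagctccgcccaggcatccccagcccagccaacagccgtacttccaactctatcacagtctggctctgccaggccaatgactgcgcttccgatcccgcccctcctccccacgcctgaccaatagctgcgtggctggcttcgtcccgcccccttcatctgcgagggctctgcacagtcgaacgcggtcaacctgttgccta

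The ISRE core lay at bases 283 to 292 of the Ifih1 window, 269 to 278 of the Eif2ak2 window and 253 to 262 of the Ddx58 window, where it was on the opposite strand. A GAS element lay at bases 73 to 81 of the Eif2ak2 window and 273 to 281 of the printed Adar window. None of these matches overlapped another. The Mavs and Tlr3 windows and the other Adar windows held neither motif in these letters. Over the 32851 windows of the RefSeq table, 3.44% held the ISRE core and 8.30% the GAS element, against 3 and 2 of the 8 windows of these genes. A match describes the letters of a window and is not a measured binding site.

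On the IFNg array 6 of the 9 genes exceeded their untreated signal 2-fold or more, 3 lay within 2-fold and none was 2-fold lower. Of all measured genes, 8.82% were at least 2-fold higher and 4.48% at least 2-fold lower. The 6 higher genes were the RNA sensors Ifih1, Tlr3 and Dhx58, the Z-nucleic acid sensor Zbp1, the kinase gene Eif2ak2 and the DNA-pathway adaptor Sting1. Ddx58, Adar and Mavs lay within 2-fold, and Mavs had the only ratio below 0. The median log2 ratio of IFNg over untreated was 1.75 for the 9 genes and -0.12 for all measured genes. Each gene took its value from its brightest probe set, signals under 20.4 (the pooled median, used as a floor) were raised to it, and a gene counted as measured when it reached the floor on 1 or both arrays. By probe set, 20 of 21 were measured, 12 were at least 2-fold higher, 1 was 2-fold lower and 7 lay between. Among all measured probe sets that name 1 gene, 9.35% were at least 2-fold higher and 4.68% at least 2-fold lower. Replicate error could not be measured. A technical spread came from genes with several probe sets, whose log2 ratios had an SD of 0.44 within a gene (4422 genes), and it leaves out differences between cultures.

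**Figure D1:**
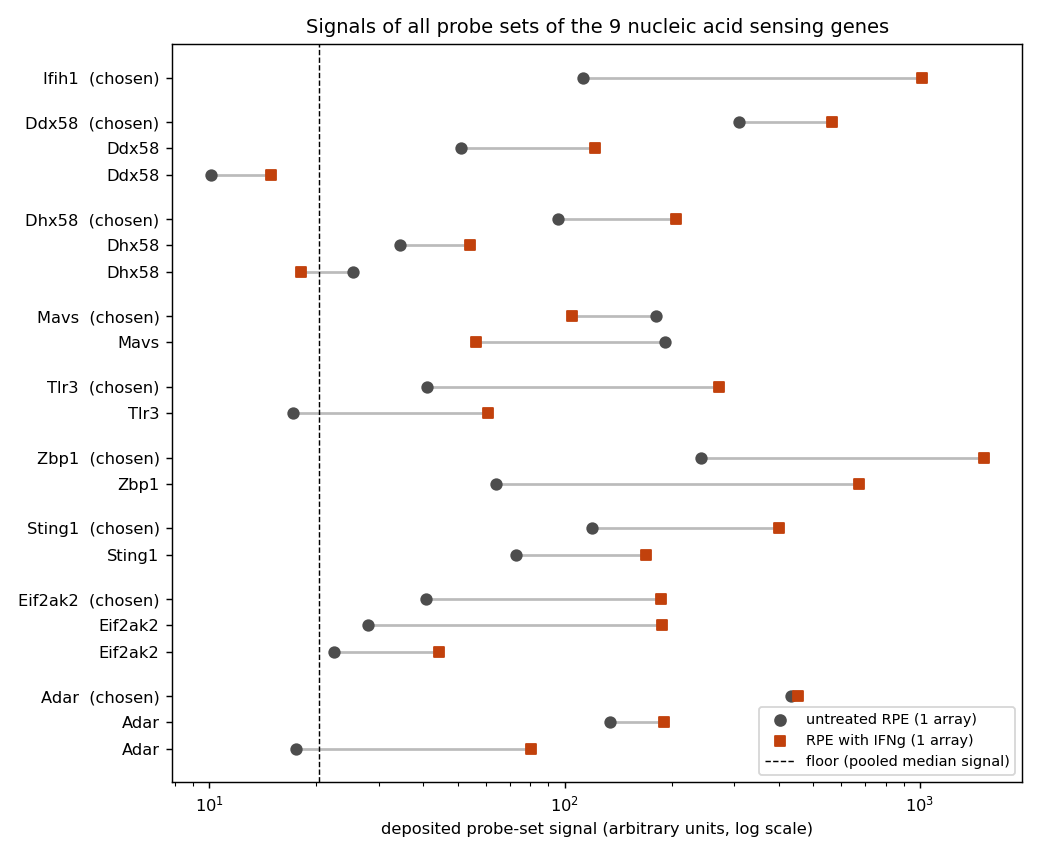
Deposited signal (arbitrary units, log scale) of each of the 21 probe sets on the untreated array (circles) and the IFNg array (squares), grouped by gene, with the floor of 20.4 dashed and the probe set that gives the gene's value marked as chosen. Squares lie to the right of circles for Ifih1, Ddx58, Tlr3, Zbp1, Sting1, Eif2ak2 and Adar, lie to the left for both probe sets of Mavs, and lie on either side for Dhx58.

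Among the RIG-I-like receptors, Ifih1 stood furthest from its untreated value. Its single probe set had a signal of 112.4 in untreated RPE and 1013.8 with IFNg, a 9.02-fold excess (log2 ratio 3.17). This ratio was above that of 99.6% of measured genes and the highest of the 9. Ddx58, the gene for RIG-I, had signals of 310.4 and 566.3, which is 1.82-fold and within the 2-fold limit (log2 ratio 0.87). A dimmer Ddx58 probe set, at 51.2 and 121.4, was 2.37-fold higher, and the last one, at 10.1 and 14.9, was at the floor on both arrays. Both measured probe sets of the RIG-I gene were thus higher with IFNg, on either side of 2-fold.

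Dhx58, the gene for LGP2, a regulator of the other RIG-I-like receptors, had signals of 95.5 and 205.3, a 2.15-fold excess (log2 ratio 1.10). It was the gene nearest to 2-fold from above, as Ddx58 was from below. Its dimmer probe sets were at 34.4 and 54.1 (1.57-fold) and at 25.3 and 18.1 (log2 ratio -0.31, with the IFNg array under the floor). The mean over its probe sets lay inside 2-fold (log2 ratio 0.48), as did the value when 16 was added to each signal instead of a floor (0.99). The middle Dhx58 probe set shared the direction of the bright one, and the dimmest did not.

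Mavs, the adaptor shared by MDA5 and RIG-I, was lower on the IFNg array by both of its probe sets. The chosen one had signals of 181.1 and 104.8, which is 1.73-fold lower (log2 ratio -0.79), and 90.6% of measured genes had a higher ratio. The second, at 191.3 and 56.2, was 3.40-fold lower, and its ID marks sequence that may cross-hybridise. Averaged over both, Mavs passed 2-fold lower (log2 ratio -1.28). The ratios of Ifih1 and Ddx58 thus lay above 0 and that of their adaptor gene below it.

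In the endosomal arm, Tlr3 had signals of 40.9 and 272, a 6.65-fold excess (log2 ratio 2.73), by a probe set whose ID marks shared sequence. Its other probe set was at 17.2, under the floor, and 60.7, at least 2.98-fold higher. When the floor was set to the pooled 75th percentile, above the untreated signal, the log2 ratio of Tlr3 became a bound of at least 1.65. Both Tlr3 probe sets were thus higher with IFNg, from dim untreated signals. Ticam1, the gene for its adaptor TRIF, was at 97.3 and 54.2, which is 1.80-fold lower (log2 ratio -0.84) and within 2-fold by its single probe set, whose ID also marks shared sequence.

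Zbp1 was higher with IFNg by both of its probe sets. The brighter one had signals of 241.2 and 1512.1, a 6.27-fold excess (log2 ratio 2.65), and the other, at 64.2 and 675.4, was 10.5-fold higher. The ratio of the chosen probe set was above that of 99.4% of measured genes. Of the partners through which ZBP1 can start necroptosis, the pseudokinase gene Mlkl had signals of 53.9 and 614.0 (11.4-fold higher), and the kinase gene Ripk3 had 346.4 and 258.6 (log2 ratio -0.42). The sensor and the terminal effector of this route were thus higher while the kinase between them lay within 2-fold.

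Sting1, the adaptor of cytosolic DNA sensing, had signals of 119.2 and 400.6, a 3.36-fold excess (log2 ratio 1.75). Its second probe set, at 72.8 and 168.9, was 2.32-fold higher, so both passed 2-fold, though the ID of the second marks shared sequence. Cgas, the gene for the enzyme that makes the ligand of STING, was dim at 35.6 and 35.5 and its other probe set, at 41.2 and 28.7, had a log2 ratio of -0.52. Zdhhc1, a palmitoyltransferase gene linked to STING signalling, was 2.10-fold lower, with signals of 61.8 and 29.4.

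Eif2ak2, the gene for PKR, had signals of 40.8 and 186.6, a 4.57-fold excess (log2 ratio 2.19). Another probe set, at 27.9 and 187.4, was 6.72-fold higher, and the dimmest, at 22.5 and 44.3, was 1.97-fold higher. At the higher floor the log2 ratio became a bound of at least 1.11, since the untreated signals of all 3 lay under that floor. The Eif2ak2 probe sets were close to the floor in untreated RPE and all higher with IFNg, so the size of the fold depends on how dim signals are read.

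Adar, the editing gene, showed no single pattern across its probe sets. The brightest had signals of 432.4 and 454.9 (log2 ratio 0.07), and the next had 134.5 and 190.4 (0.50). A dim one, at 17.5 (under the floor) and 80.4, was at least 3.94-fold higher. Under a common 75th percentile the brightest turned to -0.01, and the mean over probe sets was 0.85, still within 2-fold. Adar makes a constitutive and an interferon-inducible transcript, but which transcript each probe set reads was not determined here.

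**Figure D2:**
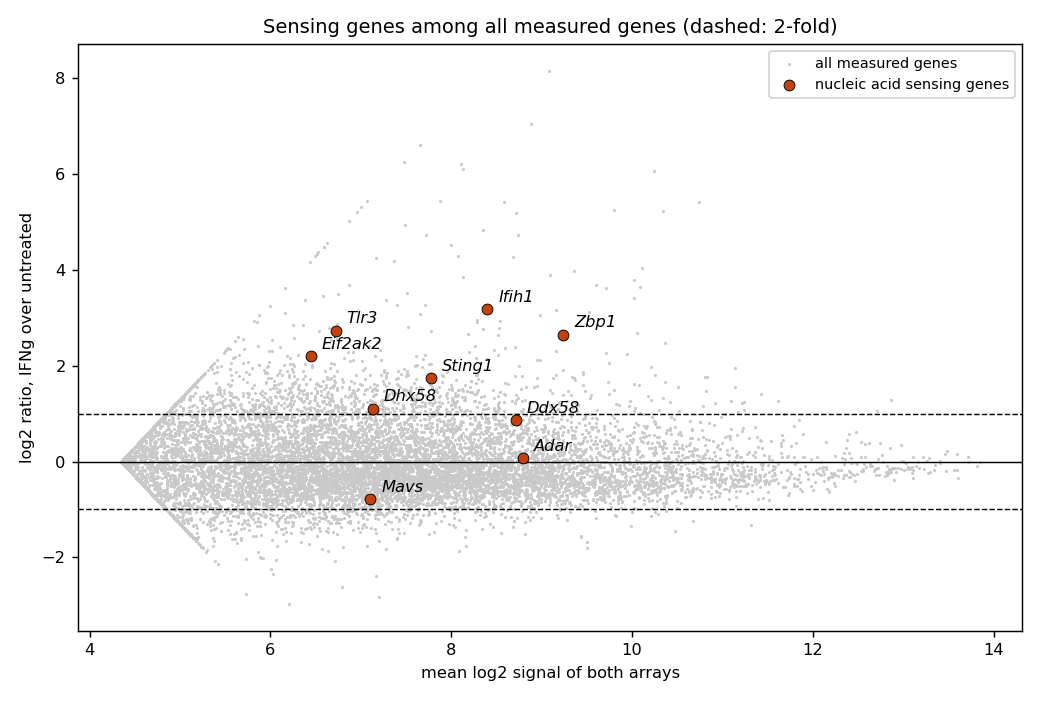
Log2 ratio of IFNg over untreated against mean log2 signal for all 12750 measured genes (grey) and the 9 sensing genes (red, named), with dashed lines at 2-fold. Ifih1, Tlr3, Zbp1, Eif2ak2, Sting1 and Dhx58 lie above the upper line, Ddx58 and Adar between 0 and that line, and Mavs below 0.

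For each gene, the gene nearest to it in the plane of the log2 signals of the 2 arrays was found among genes above the floor on both. Phf11d lay nearest to Ifih1, at 112 and 867.3 (7.74-fold higher), a distance of 0.23 log2 units. Zbp1 was nearest to Cp, the gene for the copper carrier ceruloplasmin, at 257.5 and 1271.1 (4.94-fold higher, distance 0.27). These were the longest of the 9 distances. Tlr3 lay next to H2-Q5, at 39.4 and 289.3, a class I gene with near-identical paralogs whose probe set is uncertain for that reason. Eif2ak2 lay next to Arhgap5, at 41.8 and 195.3, and Sting1 next to D5Ertd579e, at 117 and 400.9. Dhx58 paired with Hat1, a histone acetyltransferase gene, at 96.4 and 210, and Ddx58 with the mitochondrial fission gene Mff, at 314.6 and 558.1. Mavs paired with the homeobox gene Irx3, at 184.8 and 105, and Adar with Mapk1ip1l, at 430.4 and 457.2. A nearest gene over 2 arrays shares only a pair of signals.

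Further sensors of nucleic acids and related helicases had 6 of 16 measured genes past 2-fold higher and 0 past 2-fold lower, with a median log2 ratio of 0.58. The shares over all measured genes, to be read beside this list and each pathway list below, were 8.82% higher and 4.48% lower. The RNA polymerase III subunit gene Polr3f was at 13.7 and 102.1 (at least 5.00-fold higher), although further measured ones were at log2 ratios of 0.48 and -0.06. The helicase gene Dhx36 was at 53.4 and 237.2 (4.44-fold higher), with further probe sets within 2-fold at 0.81 and 0.95. Also higher were the antiviral helicase gene Ddx60, at 4.6 and 82.1 (at least 4.02-fold), and the RNA helicase gene Ddx3x, at 312.1 and 1171.4 (3.75-fold). Zc3hav1, the gene for the zinc-finger antiviral protein, was 3.21-fold higher by its chosen probe set, with a dimmer one at -0.28. The endosomal receptor genes Tlr7 and Tlr8, the DNA sensor gene Aim2 and the inflammasome gene Nlrp3 were at the floor on both arrays, and Tlr9 had signals of 5.8 and 24.4. Of Tlr3, Tlr7, Tlr8 and Tlr9, only Tlr3 was called past 2-fold. Tlr9, with its untreated signal under the floor, was at least 1.2-fold higher, a bound that could lie past 2-fold. Unc93b1, the chaperone that takes these receptors to endosomes, was at 171.6 and 282.3 (log2 ratio 0.72).

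Among adaptors, kinases and transcription factors downstream of the sensors, 5 of 23 measured genes were past 2-fold higher and 0 past 2-fold lower, with a median log2 ratio of 0.19. They were Mlkl, the interferon-induced Nmi (69.2 and 586.8, 8.48-fold), Azi2, an adaptor of the kinase TBK1 (124 and 381.8, 3.08-fold), the transcription factor Irf7 (286.3 and 853.3, 2.98-fold) and Ifi35, a partner of NMI (2.37-fold). The kinase gene Tbk1 had signals of 228.2 and 416 (1.82-fold, log2 ratio 0.87), and a dimmer probe set was at 1.89. Irf3, the transcription factor that TBK1 activates, was at 376 and 285.6 (log2 ratio -0.40). The scaffold gene Ikbkg had a log2 ratio of 0.07 by its brightest probe set and down to -1.10 by others. Of the 23 genes, 13 had ratios above 0 and 10 below it.

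Regulators of the RIG-I-like receptors, MAVS and STING gave 8 of 30 measured genes at least 2-fold higher and 1 at least 2-fold lower, with a median log2 ratio of 0.45. Nlrc5, the transactivator of class I genes that also restrains these receptors, had signals of 16.2 and 457.4 (at least 22.4-fold higher). Ube2l6, the ISG15-conjugating enzyme gene, was at 36.2 and 240 (6.63-fold), Oasl2 at 421.1 and 1748.8 (4.15-fold) and the deubiquitinase gene Usp15 at 32.5 and 116.8 (3.59-fold). Other Usp15 probe sets were dim, and the measured ones, each with 1 array under the floor, had log2 ratios of 0.01 and -0.40. Cyld, a deubiquitinase that restrains RIG-I, was 3.39-fold higher. Of the ubiquitin ligase genes that activate RIG-I, Trim25 was at 557.4 and 781 (log2 ratio 0.49), Rnf135 at 71.1 and 130.2 (0.87) and Mex3c at 254.6 and 511.1 (2.01-fold higher). The gene lower past 2-fold was Zdhhc1, by a single probe set whose ID marks shared sequence.

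Nucleases and RNA editing enzymes, which remove or alter the nucleic acids that sensors bind, gave 5 of 13 measured genes at least 2-fold higher and 1 at least 2-fold lower, with a median log2 ratio of 0.35. Samhd1, a dNTP hydrolase gene, was at 216 and 2776.5 (12.9-fold higher), with other probe sets above the floor on both arrays at log2 ratios of 1.15 and 2.78. Pnpt1, which degrades mitochondrial RNA, was at 41.2 and 229.8 (5.58-fold), and the cytidine deaminase gene Apobec3 at 64.6 and 189.5 (2.93-fold). Rnaseh2c, a subunit gene of the RNA:DNA hybrid nuclease RNase H2, was at 392.6 and 174.8 (2.25-fold lower), and its other probe sets were at log2 ratios of -1.41 and -0.62. The RNase H2 subunit genes thus differed in direction, since Rnaseh2b was at 95.3 and 178.7 (log2 ratio 0.91) and the catalytic subunit gene Rnaseh2a at -0.29. Adarb1, the second editing gene, was close to the floor at 22.1 and 16.1.

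In the PKR and eIF2alpha arm, 1 of 20 measured genes was past 2-fold higher and 0 past 2-fold lower, with a median log2 ratio of -0.13, close to that of all genes. The adaptor gene Nck1 was at 51.1 and 127.9 (2.50-fold higher). Eif2b4, a subunit gene of the eIF2 exchange factor, was at 407.1 and 220.7 (log2 ratio -0.88), Dnajc3, a PKR inhibitor gene, at 223.4 and 388.4 (0.80), and the kinase gene Eif2ak3 at 199.4 and 130 (-0.62). Other Dnajc3 probe sets ran from -0.04 to 1.53. Ddit3, a stress transcription factor gene downstream of eIF2alpha, was at 469.1 and 720.1 (0.62). The PKR activator gene Prkra had signals of 144.8 and 143. The related kinase genes Eif2ak1, Eif2ak3 and Eif2ak4 lay within 2-fold, at log2 ratios of -0.11, -0.62 and -0.16, where Eif2ak2 had 2.19.

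Type I interferon genes were near or under the floor, and no type III interferon gene matched a probe set naming it alone. Ifnb1 had signals of 17.2 and 21.2, and Ifna1, Ifna2, Ifna4, Ifna5 and Ifna11 were at the floor on both arrays. The type I receptor genes Ifnar1 (263.3 and 337.9) and Ifnar2 (918.2 and 887.6) had log2 ratios of 0.36 and -0.05, and Il10rb, a chain of the type III receptor, had -0.32. None of the 4 measured genes of this list passed 2-fold.

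**Figure D3:**
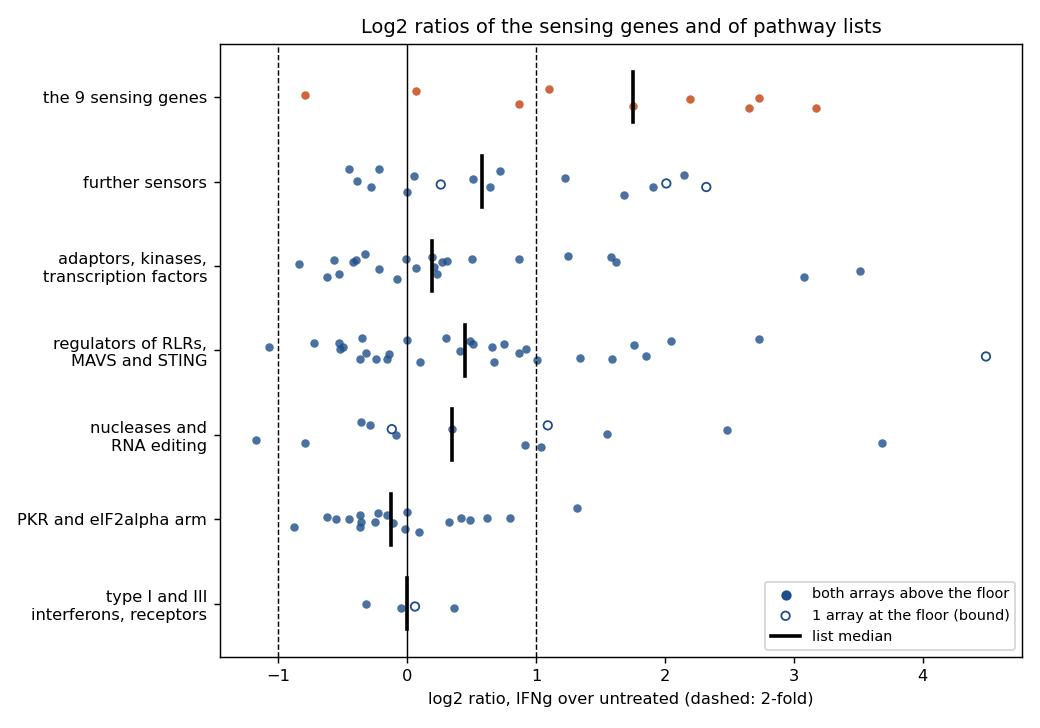
Log2 ratio of IFNg over untreated for each measured gene of the 9 sensing genes and of the 6 pathway lists, with open circles for bounds where 1 array was at the floor, black bars for list medians and dashed lines at 2-fold. The medians run from 1.75 for the sensing genes to -0.13 for the PKR and eIF2alpha arm.

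Marker genes of cell types that these cultures could hold were read beside the sensors. Of 22 leukocyte markers other than Bst2, 9 were at the floor on both arrays, among them Itgam, Cd3e and the plasmacytoid dendritic cell gene Siglech. Of the 13 measured, 3 were 2-fold lower with IFNg and none was called 2-fold higher. Clec7a, at 17.6 (under the floor) and 40.2, was at least 1.97-fold higher, a bound that could lie past 2-fold. Of the lower ones, Fcer1g and Laptm5 are bounds with the IFNg array under the floor. Other Laptm5 probe sets above the floor were at log2 ratios of -0.19 and -0.55. Csf1r, the remaining lower marker, was 2.62-fold lower, with further probe sets within 2-fold at log2 ratios of -0.56 and -0.28. The summed signal of the 13 was 785.4 in untreated RPE and 476.1 with IFNg. Of the macrophage markers, Csf1r was at 202.8 and 77.5, Cd68 at 139.6 and 87.6 and Cd14 at 117.3 and 89.8. Tyrobp, at 56.3 and 31.4, and Adgre1, at 51.3 and 44.8, were likewise above the floor on both arrays. Other myeloid markers were not, with Itgam, Aif1 and Cx3cr1 at the floor on both arrays. Fcgr3 (15.4 and 30.5) and Itgax (16.3 and 21.7) were under the floor in untreated RPE. The pan-leukocyte gene Ptprc was at 20.8 and 7. Bst2, which is interferon-stimulated in many cell types, was at 1310.3 and 3851.2 (2.94-fold higher). With Bst2, the list had 14 measured markers, 1 at least 2-fold higher and 3 at least 2-fold lower, with summed signals of 2095.7 and 4327.3. The shares over all measured genes, for this and the other marker lists, were 8.82% higher and 4.48% lower. All 12 fibroblast markers lay within 2-fold, with a median log2 ratio of -0.01 and summed signals of 75436.7 and 72343.6. All 8 measured of 10 endothelial markers also lay within 2-fold (median -0.51, summed signals 1118.8 and 1159.4), with Tie1 and Vwf at the floor on both arrays. Of 16 measured of 20 RPE markers, 6 passed 2-fold in the lower direction and none in the higher, with a median of -0.82 and summed signals of 6986.4 and 6283. The 6 were Ttr (log2 ratio -1.60), Cdh3 (-1.37), Tyrp1 (-1.29), Rdh5 (-1.21), Rlbp1 (-1.06) and Trpm3 (-1.02, a bound). Further probe sets of Ttr, Tyrp1 and Trpm3 were not all past 2-fold. The highest ratio of the list was 0.81, for Krt18. The RPE transcription factor gene Otx2 was at 410.9 and 388.5, while the defining RPE genes Rpe65, Best1 and Rgr were at the floor on both arrays. The share of each cell type and the RNA made per cell cannot be told apart in these bulk cultures, and the part of the RPE markers in the sensor results was not tested. Of 13 housekeeping genes, 12 lay within 2-fold (median -0.10), and B2m, a class I chain that is itself interferon-stimulated, was 2.45-fold higher.

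Across 9 alternatives of scaling, floor and probe-set choice, Ifih1 had log2 ratios from 3.00 to 3.28, Zbp1 from 2.57 to 3.02 and Sting1 from 1.48 to 1.84. Tlr3 ran from 1.57 to 2.76 and Eif2ak2 from 1.11 to 2.20. These 5 genes were at least 2-fold higher under all 9. Ddx58 stayed between 0.70 and 0.98 and Adar between -0.01 and 0.85, both within 2-fold throughout. The 0.70 of Ddx58 came from averaging, which counted its probe set at the floor on both arrays as a log2 ratio of 0. Its measured probe sets were at 0.87 and 1.25, so the averaged value does not place Ddx58 within 2-fold by measured signal alone. Dhx58 ran from 0.48 to 1.16 and passed 2-fold under 7 of 9, and Mavs ran from -1.28 to -0.71 and passed 2-fold lower under 1.

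**Figure D4:**
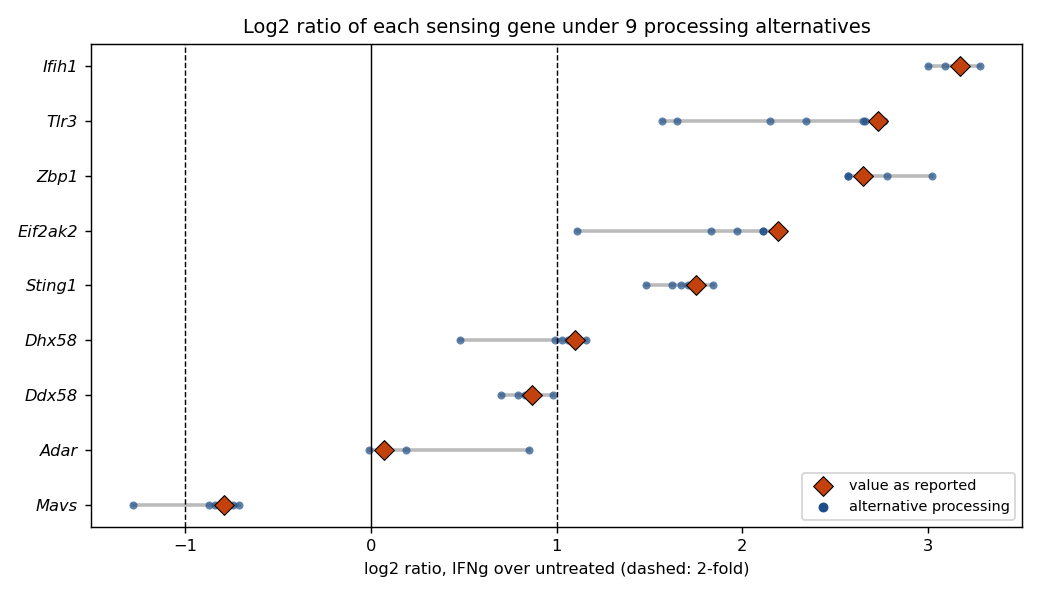
Log2 ratio of IFNg over untreated for each sensing gene as reported (diamonds) and under the 9 alternatives (dots, joined by a grey range), with dashed lines at 2-fold. All values of Ifih1, Tlr3, Zbp1, Eif2ak2 and Sting1 lie above the upper line, and all values of Mavs lie below 0.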

How the data were processed

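Biotin-labelled cRNA was made from the total RNA of each culture, per the labels' protocols, and read on 1 array per culture. The deposited table gives a linear signal intensity for each of 45101 probe sets. The sources used here do not give the summarisation, the background correction or the detection calls. As seen in the values, the authors' arrays share a mean of 100 after trimming 2% at each end.

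The members, lists and tests were chosen with earlier results of these data known. The 64 control probe sets were left out, arrays were brought to the same trimmed mean (factors 1.00008 untreated and 0.999924 IFNg), signals under the pooled median of 20.4 were raised to it, and log2 was taken. Genes were named from the platform annotation, which can be old, using probe sets with 1 gene. Each took its brightest such probe set by mean log2 signal. Of 232 list symbols, 26 matched no such probe set. Where 1 array was under the floor, the fold is given as a bound. All 9 members were named with all probe sets. From each pathway list came the 4 measured genes with the largest absolute log2 ratio, any 2-fold the other way, and direct partners of a member. Eif2ak3 was named as a relative of PKR. Genes such as Ifi35, Zc3hav1, Ikbkg, Cyld, the floor-level receptors and the macrophage markers were chosen after their values were seen. Promoter sequences are RefSeq's (GRCm38.p6), used for 6 of the 9 members. Scaling, log2 ratios and 2-fold calls were tested on simulated data with 1 probe set per gene and no working floor. The floor, the bounds and the choice of probe set were not tested in this way. Analyses used Python 3.11.15, numpy 2.4.6, pandas 2.3.3, statsmodels 0.14.6 and matplotlib 3.10.9.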

Additional observations from a re-analysis of the deposited data

How the results depend on the processing

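The count of sensing genes at least 2-fold higher was 6 under most alternatives and 5 to 7 over all of them, with 5 for a pseudocount of 16, for averaged probe sets and at 3-fold. The count at least 2-fold lower was 1 in place of 0, with Mavs the gene concerned, when probe sets were averaged and at a threshold of 1.5-fold. The median log2 ratio of the 9 genes was 1.11 when the floor was the pooled 75th percentile of signal. Counts over all genes moved most: 2258 higher and 2059 lower when the floor was the 25th percentile, 574 and 163 when it was the 75th, 591 and 357 with probe sets averaged, 2287 and 2381 at 1.5-fold and 336 and 59 at 3-fold. Of 106 measured genes of the pathway lists, 27 were past 2-fold in either direction, against 44 past 1.5-fold and 16 past 3-fold. The counts over all genes at 1.5-fold and 3-fold, to be read beside those of the lists, were out of 12750 measured genes. So were 1124 higher and 571 lower at 2-fold. Measured genes numbered 16577 with the floor at the 25th percentile, 7766 at the 75th and 12756 with probe sets averaged. Single-gene values that moved by more than the technical SD of 0.44 were Adar, Dhx58, Mavs and Tlr3 with probe sets averaged, Tlr3 and Eif2ak2 at the high floor, and Tlr3 without probe sets marked as shared (1.57). A floor above the untreated signal makes a ratio a smaller bound by construction. Averaging counts a probe set at the floor on both arrays as a log2 ratio of 0 and takes bounds as values, also by construction. How much of each move under averaging comes from this was not tested. No paired analysis was possible because each group has 1 sample. With 1 array per group nothing here measures the spread between cultures, and signal near the floor limits the folds of Tlr3 and Eif2ak2.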
